A study of Homo sapiens and Mus musculus with 24 samples.

Results

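Parental MCF10A cells treated with the solvent DMSO for 4 h were described from 3 RNA sequencing libraries, out of 24 libraries in the series. MCF10A is a human breast epithelial line that grows without limit but does not form tumours. The cells were wild type for PIK3CA, the gene for the catalytic subunit of PI3K alpha, and were bought as the parental member of an isogenic pair. The other 21 libraries come from MCF10A cells with a heterozygous PIK3CA H1047R mutation, from cells given a PI3K inhibitor (BYL719 or GDC0032) and from mouse embryonic fibroblasts with or without that mutation. None of them was used here. The 3 libraries were the whole group of parental DMSO cells, so n = 3 throughout. They represent 1 line. The labels do not say whether they came from separate cultures, so the spread between them may be technical. No source used here gives the growth medium. All 3 libraries received DMSO, so the effect of the solvent and the resting state cannot be told apart.

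The breast duct is lined by 2 epithelial layers, written here as background. Inner luminal cells carry keratins 7, 8, 18 and 19, and some of them have receptors for oestrogen and progesterone and can make milk. Outer basal cells sit on the basement membrane, carry keratins 5, 14 and 17 and the transcription factor p63, and in the gland they contract through smooth muscle proteins. Lines grown from normal breast on plastic often keep a basal or mixed character.

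Levels are in TPM, the share of a library's transcripts after reads have been divided by transcript length and scaled to a fixed sum. A gene is called detected here at 1 TPM or more in every library, and near absent under 0.1 TPM in every library. The libraries held 162755457, 135029206 and 122655587 estimated read pairs of 150 nt. At that depth 3 reads, taken as the floor, correspond to 0.0184, 0.0222 and 0.0245 CPM (reads scaled to a common library size) in replicates 1, 2 and 3. Floors cover counting error only. Values after ± are standard deviations (SD) between the 3 libraries and are not limited to counting error. No library was a copy of another, since the chi-square per degree of freedom between pairs was 12.1, 26.3 and 51.9. Replicate 3 stood apart in a group of RNAs, most of them structural, described below. The values it moves most are given with and without it.

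Of 58434 gene identifiers, 13764 were detected, and 11743 of those were protein-coding, meaning that at least 1 of the gene's transcripts has that class. They made up 59.7% of the 19674 protein-coding genes listed, and 27.6% of protein-coding genes were near absent. The counts of the marker lists and gene families below are to be read beside these shares. Of the 38760 other genes, 2021 were detected (5.21%). The distribution was steep: 46 genes held 25% of all TPM, 236 held 50%, 1591 held 75% and 4551 held 90%. A level of 100 TPM or more in every library was reached by 1382 genes, and a level of 1000 TPM or more by 152.

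The most abundant RNA came from MT2A, which encodes a small metal-binding metallothionein. It had 33272, 31383 and 31461 TPM in the 3 libraries, above every other gene in each. S100A2, a calcium-binding protein of squamous and basal epithelia, had 15652, 15900.3 and 14094 TPM. S100A6 from the same family had 4489.5, 4747 and 4336 TPM. TMSB10, which binds actin monomers, had 9182, 9091 and 8740.4 TPM, and the actin gene ACTB had 5009, 4799 and 5168 TPM. The remainder of the highest 25 were mostly the machinery of protein synthesis and respiration. They included the elongation factor EEF1A1 (7910.1, 8171 and 8094 TPM), the nucleolar gene NPM1, the iron store FTH1, PPIA, TPT1, GAPDH and the ribosomal protein genes RPL41, RPS18, RPS27 and RPL37A. Mitochondrially encoded mRNAs filled 7 of the 25 places, with MT-ATP8, MT-ND4L, MT-CO2, MT-CO1, MT-ATP6, MT-CO3 and MT-ND3.

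**Figure D1:**
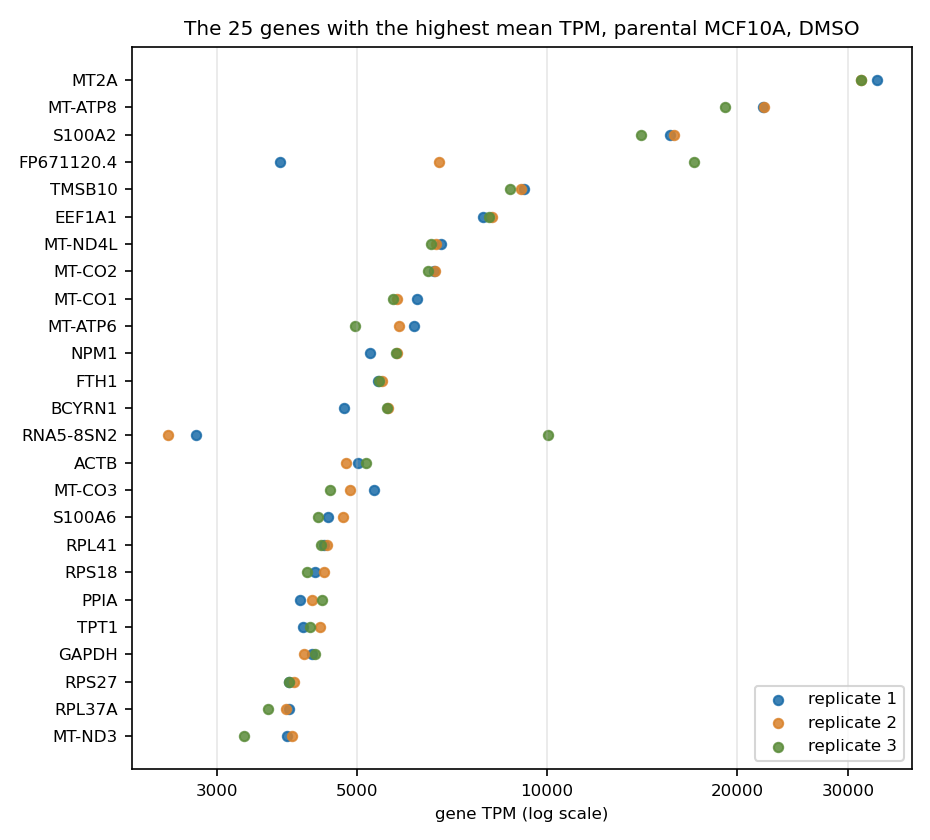
Gene TPM on a log axis for the 25 genes with the highest mean TPM; each point is 1 of the 3 libraries. MT2A lies at 31383 to 33272 TPM, and the points of FP671120.4 and RNA5-8SN2 are spread wider than those of the other genes, with replicate 3 highest.

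Transcript length shaped this order. By estimated reads, not divided by length, the first places went to EEF1A1, MT-CO1 and ACTB, with MT2A at place 6 and KRT5 at place 8. MT-ATP8 stood at place 2 by TPM and place 291 by reads, because its effective length, the number of positions at which a fragment could start, was 27 in replicate 1. BCYRN1, a short cytoplasmic RNA, stood at place 13 by TPM from 14601 reads in replicate 1 and at place 2140 by reads. The ribosomal RNA gene RNA5-8SN2 stood at place 14 by TPM and place 10288 by reads. It had 708, 528 and 1909 reads, and its effective length was 2 in replicate 1. The 20 most abundant genes took 16.3%, 16.5% and 17.6% of TPM but only 7.85%, 8.02% and 8.58% of reads.

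Large families set the general shape of the transcriptome. All 77 cytosolic ribosomal protein genes were above 100 TPM and together took 16.7%, 16.8% and 16.1% of TPM. The 13 mitochondrially encoded mRNAs took 6.97%, 6.80% and 6.21%. The 15 S100A genes, all on chromosome 1, took 2.83% ± 0.121 (SD, n = 3). Of these, 12 were detected, and S100A10 (2677, 2686 and 2596 TPM) and S100A11 (2393, 2332 and 2482 TPM) followed S100A2 and S100A6. S100A10 is the partner of annexin A2, and ANXA2 was the highest of 12 annexin genes at 3604, 3749 and 3745 TPM. Of the annexins 11 were detected, and ANXA13 had no reads in any library.

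By transcript class, protein_coding transcripts took 84.2% ± 1.09 of TPM and 90.8% ± 0.291 of reads (SD, n = 3). Transcripts with a retained intron took 4.97% ± 0.186, processed transcripts without an open reading frame 3.44% ± 0.0585, and transcripts marked for nonsense-mediated decay 2.22% ± 0.0176 of TPM. These classes differ in length, and the shares of retained-intron transcripts and processed transcripts were lower by reads, at 3.00% and 1.74%. Class lincRNA took 1.54% ± 0.673 of TPM, or 1.16% without replicate 3, in which FP671120.4 was highest. Class rRNA took 0.511% ± 0.426, or 0.265% without replicate 3, but only 0.0008% of reads. Mitochondrial ribosomal RNA took 0.448% ± 0.0338.

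All 21 basal mammary markers were detected, each above 10 TPM in every library, with a median of 219.6 TPM against 4.95 TPM over all protein-coding genes. The list was chosen with earlier results of these data known, so its count and median describe these genes and do not test a basal identity. Contractile genes of basal cells were kept as a separate list, of which 7 of 11 were detected. KRT5, the type II keratin of basal cells (chr12:52514575-52520687, GRCh38), had 2674, 2638 and 2680.2 TPM. Its usual type I partner in basal cells, KRT14, had only 48.0, 47.0 and 47.6 TPM. KRT17, another type I keratin of basal cells, had 1222, 1238 and 1267 TPM, and KRT6A, a type II keratin of activated epidermis, had 1419, 1388 and 1382 TPM. KRT15 had 129.7, 128 and 133 TPM. The abundant basal type I keratin in these cells was therefore KRT17, with KRT15 and KRT14 below it, in each of the 3 libraries. KRT14, KRT16 and KRT17 have near-identical pseudogene copies, so their levels depend on how shared reads were divided.

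**Figure D2:**
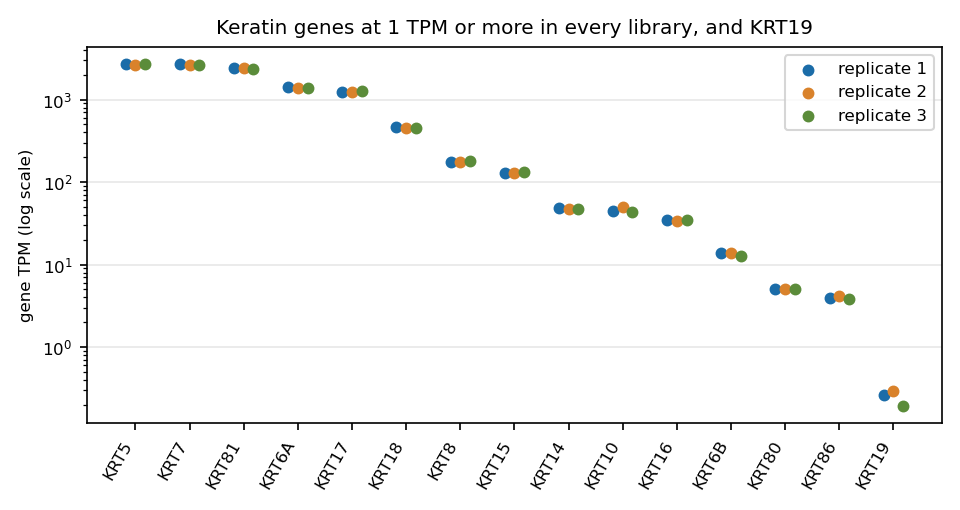
Gene TPM on a log axis for the keratin genes detected in every library, and for KRT19; each point is 1 library. KRT5, KRT7 and KRT81 lie above 2000 TPM, KRT14 near 48 TPM and KRT19 under 0.3 TPM.

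Keratins as a family were used narrowly. Of 55 keratin genes, 27 on chromosome 12 and 28 on chromosome 17, 14 were detected, 35 were near absent and 22 had no reads in any library. The family took 1.13% of TPM. KRT7, a type II keratin of simple and glandular epithelium, had 2696, 2629.7 and 2609.8 TPM and so was level with KRT5. KRT81, known as a type II keratin of the hair shaft, came next at 2422, 2408 and 2348 TPM. Nearly all of it was carried by 1 transcript, KRT81-201. Its neighbour KRT86, a close relative with similar sequence, had 3.94, 4.21 and 3.78 TPM. KRT18 and KRT8, the pair of simple epithelium, had 461, 452 and 456 TPM and 174, 177 and 179 TPM. KRT19, a luminal keratin on the same chromosome arm as KRT14, was not detected and had 0.262, 0.297 and 0.191 TPM.

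The adhesion system of basal cells was expressed as a set. Laminin-332 is the laminin that anchors epithelium to the basement membrane. Among its chains, LAMA3 had 495, 484 and 488 TPM and LAMB3 had 458, 421 and 415 TPM. Of the 12 laminin genes 8 were detected, and LAMA4, a chain of vessel walls, was near absent at 0.0450, 0.0491 and 0.0618 TPM. The hemidesmosome receptor for laminin-332 is the integrin made by ITGA6 (292, 287 and 287 TPM) and ITGB4 (265, 233 and 242 TPM). COL17A1, which spans the membrane beside it, had 224, 217 and 218 TPM, and DST, its inner plaque protein, had 89.3, 87.1 and 91.4 TPM. Among 26 integrin genes 15 were detected, and ITGB1, the shared beta chain, was the highest at 643, 649.8 and 643 TPM. The detected shares of the laminin and integrin families were near the 59.7% of all protein-coding genes, so these counts do not set the families apart.

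TP63, the gene of the basal transcription factor p63 (chr3:189631416-189897279), had 26.1, 26.6 and 28.8 TPM. It can start at 2 promoters, and the TA form carries an activation domain that the deltaN form lacks. The coding part of the first coding exon tells them apart, and both are shown from GENCODE 29 transcripts on the plus strand of GRCh38, with the start codon in capitals. The deltaN stretch is chr3:189789801-189789842 and the TA stretch is chr3:189631516-189631577.
TP63 deltaN start: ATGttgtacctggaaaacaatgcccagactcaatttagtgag
TP63 TA start: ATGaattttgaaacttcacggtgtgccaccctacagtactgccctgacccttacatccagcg
Transcripts with the deltaN start held 98.9%, 99.2% and 98.8% of the TPM that could be assigned to 1 of these starts. Transcripts with the TA start held 1.08%, 0.827% and 1.17%, or 0.281, 0.220 and 0.336 TPM. The single transcript TP63-203 held 81.7% ± 1.27 of the gene's TPM.

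Of 20 luminal markers 12 were detected and 7 were near absent, with a median of 3.75 TPM. The detected share was close to the 59.7% of all protein-coding genes, so the count sets luminal markers apart from genes in general in neither direction. Beside KRT7, KRT18 and KRT8, the surface protein CD24 had 205, 202 and 203 TPM, and XBP1, a factor of secretory cells, had 49.4, 49.6 and 49.6 TPM. ALDH1A3, an enzyme of luminal progenitors, had 33.9, 32.5 and 33.2 TPM, and the ETS factor EHF had 26.2, 27.8 and 27.2 TPM. The factors that define hormone-sensing luminal cells were low, with GATA3 at 8.47, 8.13 and 7.98 TPM and FOXA1 at 4.23, 4.67 and 4.36 TPM. The factor ELF5 of alveolar cells and the secreted peptide TFF3 had no reads in any library. In replicate 3, a floor of 3 reads on the longest listed transcript is 0.0141 TPM for ELF5 and 0.0356 TPM for TFF3. The floor is higher for shorter transcripts. KIT, PROM1, TFF1, SPDEF and ANKRD30A were also near absent, each under 0.1 TPM in every library.

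Hormone receptors also differed among themselves. ESR1, the oestrogen receptor alpha gene, was at the detection limit with 1.04, 0.887 and 1.11 TPM. PGR, the progesterone receptor gene, had reads in 1 library only, at 0.000621 TPM, and the prolactin receptor gene PRLR had 0.0489, 0.0945 and 0.0563 TPM. Receptors for retinoids, glucocorticoids and vitamin D were detected instead. RARG had 60.04, 58.8 and 61.9 TPM, RXRA had 37.3 TPM in each library, NR3C1 had 37.3, 36.2 and 38.01 TPM, and VDR had 25.3, 24.2 and 26.1 TPM. In all, 7 of 15 receptor genes were detected, beside 59.7% of all protein-coding genes. Of 8 milk genes 7 were near absent, and the casein genes CSN2 and CSN1S1, the alpha-lactalbumin gene LALBA and the lactoferrin gene LTF had no reads. The exception was XDH, a purine-breaking enzyme of the milk fat membrane, at 13.5, 12.9 and 13.6 TPM.

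Of 11 myoepithelial contractile genes 7 were detected, a share near the 59.7% of all protein-coding genes. TPM2, a tropomyosin, had 341, 345 and 335 TPM, CALD1 had 115, 119 and 119 TPM, and TAGLN had 46.2, 46.8 and 46.5 TPM. These are also found in many cultured cells with stress fibres. The actin ACTA2, the usual stain for myoepithelium, had 10.7, 10.9 and 10.9 TPM. Genes more restricted to smooth muscle were lower, with MYH11 at 0.277, 0.275 and 0.329 TPM, ACTG2 near absent and CNN1 without a read. The oxytocin receptor gene OXTR, through which milk is expelled, had 0.363, 0.363 and 0.470 TPM.

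Epithelial junction genes were expressed almost throughout. Of 27 listed genes 25 were detected, with a median of 37.6 TPM. Desmosome genes were highest, with JUP at 210.2, 198 and 209 TPM, PKP3 at 166, 160.2 and 159 TPM, DSP at 138, 132 and 138 TPM and DSG2 at 133, 134 and 135 TPM. The adherens junction gene CDH1 had 70.9, 70.4 and 76.1 TPM, while the basal cadherin CDH3 had 154, 153 and 162 TPM. By gene TPM the 2 cadherins did not overlap in any library, but the difference lay in transcripts marked for nonsense-mediated decay. Of CDH3, CDH3-203 and CDH3-206 from that class had 55.9, 51.6 and 60.3 TPM and 19.7, 21.7 and 23.5 TPM. The leading coding transcripts were level, with CDH3-202 at 64.1, 65.2 and 64.04 TPM and CDH1-201 at 64.7, 64.3 and 68.7 TPM. Regulators of the epithelial state were also present: ESRP1, a splicing factor, had 85.7, 87.6 and 87.5 TPM, KLF5 had 70.0, 68.2 and 72.9 TPM and GRHL2 had 29.9, 27.5 and 28.7 TPM. The tight junction genes CLDN1 and OCLN were low at 4.13 ± 0.264 and 3.36 ± 0.353 TPM (SD, n = 3). GRHL3 (0.750 ± 0.0480 TPM) and the desmosome gene PKP1 (0.0851 ± 0.0316 TPM) were the undetected ones.

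Of 19 mesenchymal genes 12 were detected and 6 were near absent, with a median of 3.60 TPM. Both shares were near those of all protein-coding genes, 59.7% and 27.6%. VIM, the intermediate filament of mesenchyme, had 372, 357 and 371 TPM and so exceeded KRT8 in every library. The matrix gene FN1 had 63.9, 58.9 and 59.8 TPM. SNAI2, a transcription factor of basal cells that is counted among the basal markers here, had 55.6, 54.7 and 54.6 TPM. TWIST2 had 20.9, 19.5 and 20.3 TPM and TWIST1 had 15.5, 13.8 and 13.2 TPM. Like SNAI2 and TWIST1, the factors SNAI1, ZEB1 and ZEB2 are known as repressors of CDH1, and these had lower levels, with SNAI1 at 1.101, 1.06 and 1.11 TPM, ZEB2 at 1.90, 2.08 and 2.31 TPM and ZEB1 at 0.481, 0.467 and 0.533 TPM. Collagen genes of stroma differed among themselves: COL1A1 had 11.5, 10.4 and 11.2 TPM, but its partner chain COL1A2 had 0.0302, 0.0346 and 0.0141 TPM and COL3A1 was near absent too.

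Of 24 squamous genes 13 were detected and 7 were near absent, again near the 59.7% and 27.6% of all protein-coding genes. S100A2, S100A14 (1681, 1714 and 1624 TPM) and SFN, the 14-3-3 protein of stratified epithelium (673, 663 and 661 TPM), led the list. CSTA, a protease inhibitor of the cornified envelope, had 138, 144 and 135 TPM. Genes of differentiation differed widely. KRT10, a keratin of differentiating epidermis, had 45.1, 49.7 and 43.4 TPM, while its partner KRT1 had no reads. The leading KRT10 transcript, KRT10-202, was only 583 nt long, and the gene had 13012 reads in all. KRT14, at a similar TPM, had 21875 reads and a leading transcript of 1636 nt, so the KRT10 level depended on the short transcript. IVL had 5.49, 5.43 and 5.59 TPM and TGM1 had 3.06, 2.86 and 2.59 TPM, while FLG had 0.0651, 0.0492 and 0.0513 TPM. TGM3 and CRNN had no reads either, and the loricrin gene had reads in 1 library.

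Growth factor receptors were broad. Of 21 receptor genes 17 were detected, with a median of 23.4 TPM. The collagen receptor DDR1 was highest at 90.4, 87.6 and 83.6 TPM. In the EGF receptor family, EGFR had 56.9, 53.6 and 53.7 TPM, ERBB2 had 39.6, 37.9 and 40.3 TPM and ERBB3 had 29.2, 28.4 and 29.3 TPM. The order EGFR, ERBB2, ERBB3 held in every library without overlap. The fourth member, ERBB4, was not detected and had 0.0120, 0.117 and 0.0141 TPM. The cells also held RNA of EGFR ligands, with AREG at 65.5, 59.8 and 54.9 TPM, EPGN at 28.1, 27.9 and 27.9 TPM, TGFA at 13.7, 12.1 and 12.0 TPM and HBEGF at 6.46, 6.24 and 5.80 TPM. EGF itself had 0.247, 0.361 and 0.310 TPM, and NRG3 had no reads. Other receptors included the hepatocyte growth factor receptor MET (40.9, 39.97 and 37.8 TPM) and its relative MST1R (47.0, 44.2 and 44.4 TPM). Receptors of mesenchyme were under the detection limit, with PDGFRA at 0.403, 0.262 and 0.358 TPM and PDGFRB near absent at 0.0651, 0.0529 and 0.0746 TPM.

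FGFR2 encodes an FGF receptor whose ligand range depends on a choice between 2 exons. Exon IIIb is typical of epithelium and exon IIIc of mesenchyme. The gene was low, at 7.21, 6.58 and 6.72 TPM. Transcripts with exon IIIb held 54.5%, 62.9% and 63.3% of the TPM that could be assigned, and those with exon IIIc held 45.5%, 37.1% and 36.7%. By estimated reads the shares were 52.7% and 47.3%. About 75.3% of the gene's TPM was in transcripts with 1 of the 2 exons. The gene thus had both forms by Salmon's estimate, with IIIb at 3.04, 3.11 and 3.12 TPM and IIIc at 2.54, 1.83 and 1.81 TPM, and replicate 1 was the least one-sided.

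The PI3K pathway, in which the catalytic subunit turns a receptor signal into a membrane lipid that recruits AKT kinases, was expressed nearly whole. Of 24 components 23 were detected, with a median of 19.6 TPM. Among catalytic subunits, PIK3CB had 32.0, 31.8 and 29.6 TPM, PIK3CA had 17.6, 20.3 and 19.0 TPM and PIK3CD had 4.11, 4.70 and 4.22 TPM. Of the PIK3CA level, 4.52, 6.69 and 4.97 TPM lay in PIK3CA-202, a 746 nt transcript with a retained intron. That transcript held 28.3% of the gene's TPM but only 3.66% of its reads, so the coding level of PIK3CA was lower than the gene TPM. The leukocyte subunit PIK3CG had no reads, and 3 reads on its longest transcript would be 0.00461 TPM in replicate 3. For regulatory subunits, PIK3R2 had 34.7, 32.5 and 35.5 TPM and PIK3R1 had 20.8, 21.3 and 18.9 TPM. PIK3R1 was mostly the long p85 alpha form, whose start codon lay in transcripts with 96.0%, 90.4% and 93.1% of the assigned TPM. The antagonist INPP4B, a lipid phosphatase of the pathway, had 14.95, 15.5 and 13.97 TPM. AKT1 had 129, 125 and 129 TPM and AKT2 had 106, 103 and 106 TPM. Downstream, RHEB had 131, 135 and 133 TPM and MTOR had 21.6, 20.9 and 22.1 TPM.

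**Figure D3:**
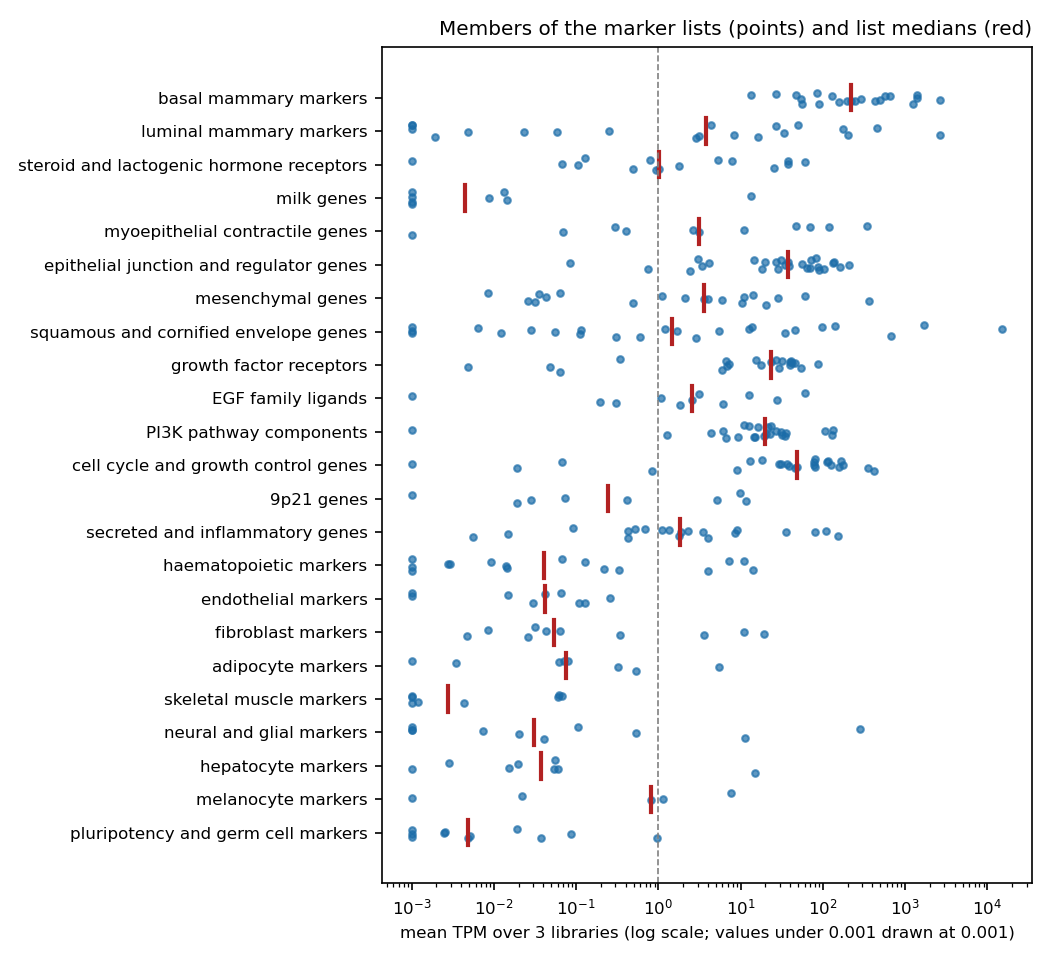
Mean TPM over the 3 libraries on a log axis for every member of the 23 marker lists (points) with list medians (red bars); the dashed line marks 1 TPM and values under 0.001 are drawn there. All basal mammary markers lie right of the line, and no endothelial, skeletal muscle or pluripotency marker was detected in every library.

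Genes of cell division were expressed. Of 25 cell cycle and growth control genes 21 were detected, with a median of 48.0 TPM. The mitotic cyclin CCNB1 had 408, 421 and 411 TPM, PCNA, the clamp of DNA replication, had 351, 362 and 351 TPM, and the proliferation marker MKI67 had 82.2, 78.2 and 82.2 TPM. MYC had 126, 108 and 104.7 TPM. The brakes RB1 and CDKN1A were present at 38.2 ± 0.405 and 157 ± 2.34 TPM (SD, n = 3). Among D cyclins, CCND3 had 79.9, 79.0 and 78.0 TPM and CCND1 had 40.2, 36.7 and 34.0 TPM, while CCND2 was near absent at 0.0820, 0.0712 and 0.0513 TPM. TERT, the telomerase gene, had 0.920, 0.859 and 0.761 TPM and was under the detection limit.

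CDKN2A and CDKN2B, neighbouring genes that encode inhibitors of CDK4 and CDK6, were not expressed. CDKN2A (chr9:21967753-21995301) had 0, 0.0182 and 0.0395 TPM, which is 0, 1 and 1 reads. CDKN2B (chr9:22002903-22009363) had 1 read in replicate 2 and none in the other libraries. Their relatives on other chromosomes were expressed, with CDKN2C at 31.2, 30.6 and 30.7 TPM and CDKN2D at 8.89, 9.21 and 8.65 TPM. The stretch of near-absent genes was wider than these 2. From the start of MTAP to the end of CDKN2B-AS1, chr9:21802543-22121097, the 14 listed genes were all under 0.1 TPM in every library. Of these, 9 had no reads and 3 were protein-coding. Among all noncoding genes 76.6% were under 0.1 TPM in every library and 60.5% had no reads. Among protein-coding genes 27.6% were under 0.1 TPM. MTAP, an enzyme of methionine salvage used in most tissues, had 0.0914, 0.0623 and 0.0650 TPM, all of it in the transcripts MTAP-210, MTAP-214 and MTAP-209 of 14 listed. Some genes farther out were expressed. On the side of MTAP, FOCAD had 11.9, 11.7 and 11.6 TPM and KLHL9 had 5.19, 5.25 and 4.84 TPM. On that side HACD4 (0.0286, 0.0334 and 0.0158 TPM) and most interferon genes were near absent as well. On the other side ELAVL2 had 9.59, 10.0 and 10.0 TPM. DMRTA1, the next protein-coding gene beyond CDKN2B-AS1, had 0.378, 0.426 and 0.436 TPM. As background, loss of this locus has been described for MCF10A. DNA was not measured here, so a lost and a silenced locus cannot be told apart.

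**Figure D4:**
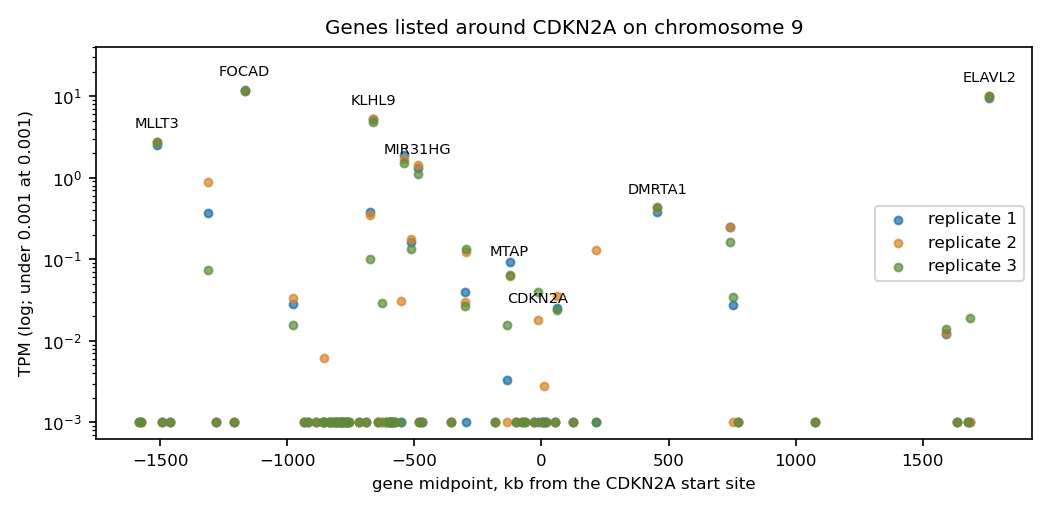
TPM on a log axis (values under 0.001 drawn at 0.001) of genes listed around CDKN2A against the distance of their midpoint from its start site in kb; each point is 1 library. FOCAD, KLHL9 and ELAVL2 lie above 4 TPM, and MTAP and CDKN2A lie under 0.1 TPM.

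Of 20 secreted defence and inflammatory genes 12 were detected, with a median of 1.83 TPM and a share near that of all protein-coding genes. The protease inhibitor SLPI had 149, 158 and 151 TPM, the cytokine gene IL18 had 112, 109.7 and 103 TPM and PI3, an elastase inhibitor, had 35.9, 34.3 and 36.8 TPM. SAA1, an acute phase gene with the near-identical copy SAA2, had 82.0, 79.7 and 79.3 TPM. Chemokine genes were low, with CXCL8 at 0.470, 0.611 and 0.456 TPM. IL6 and CCL2 were near absent at 0.0147 ± 0.0141 and 0.00556 ± 0.00963 TPM (SD, n = 3).

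Markers of other cell types were mostly near absent, and none of their lists was detected in full. None of 9 endothelial, 8 skeletal muscle or 11 pluripotency and germ cell markers was detected in every library. Their sums over the 3 libraries ran at 0.617 to 0.678, 0.136 to 0.252 and 1.05 to 1.19 TPM. Of 16 haematopoietic markers 4 were detected, namely CD68 (14.02 ± 0.252 TPM), HBA1 (10.9 ± 0.531 TPM), CSF1R (7.16 ± 0.634 TPM) and CD14 (4.00 ± 0.791 TPM). The pan-leukocyte gene PTPRC had 0.00375, 0.00448 and 0 TPM, and MS4A1 and HBB had no reads. HBA1 has a near-identical copy in HBA2, and its level depends on how shared reads were divided. Of 10 fibroblast markers 3 were detected, with FAP, a membrane protease of activated fibroblasts, at 19.7, 18.9 and 19.0 TPM, COL1A1 as above and DCN at 3.20, 3.65 and 3.84 TPM. PDGFRB, THY1, LUM and COL1A2 from the same list were near absent. Of 10 neural and glial markers 2 were detected, TUBB3 at 298, 276 and 280.3 TPM and MBP at 11.8, 10.6 and 11.3 TPM. OLIG2, S100B and NEUROD1 had no reads, and TUBB3 is a tubulin gene that is known in many cultured cells. Single members led the remaining lists: PPARG among 8 adipocyte markers (5.17, 5.56 and 5.45 TPM), SERPINA1 among 8 hepatocyte markers (14.6, 14.5 and 15.5 TPM) and MITF among 5 melanocyte markers (7.47, 7.97 and 7.32 TPM).

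Most genes with several transcripts had a stable leading isoform. Of 12075 detected genes with 2 or more listed transcripts, 90.3% had the same most abundant transcript in every library, and in 7262 (60.1%) that transcript held at least 50% of the gene's TPM in every library. The median share of the leading transcript was 60.6%. In replicate 1, 83.9% of leading transcripts were of class protein_coding. The 12075 genes include noncoding genes, so the remainder are not all protein-coding genes led by another class. At least 1 TPM in every library was reached by 37909 transcripts, with a median of 2 per gene and a maximum of 33 in EEF1D. Genes dominated by 1 form included VIM (99.3% ± 0.109 in VIM-201), KLF5 (96.0% ± 1.73), EGFR (93.0% ± 1.70), LAMB3 (92.0% ± 0.424), CDH1 (91.0% ± 0.591) and KRT5 (89.7% ± 0.391).

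Pyruvate kinase, the last enzyme of glycolysis, illustrates an exon choice. PKM had 1917, 2001 and 1976 TPM, and its transcripts carry either exon M1, typical of muscle and brain, or exon M2, typical of dividing cells. They have the same length and lie side by side on the minus strand of chromosome 15 in GRCh38, at chr15:72203022-72203188 for M1 and chr15:72202454-72202620 for M2. They are shown from GENCODE 29, with capitals at the 62 positions where they differ, because these letters alone tell the forms apart.
PKM M1: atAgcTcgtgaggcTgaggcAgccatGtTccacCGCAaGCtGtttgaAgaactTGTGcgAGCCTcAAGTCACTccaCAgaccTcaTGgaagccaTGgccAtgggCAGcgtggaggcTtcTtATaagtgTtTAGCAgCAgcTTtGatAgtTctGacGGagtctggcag
PKM M2: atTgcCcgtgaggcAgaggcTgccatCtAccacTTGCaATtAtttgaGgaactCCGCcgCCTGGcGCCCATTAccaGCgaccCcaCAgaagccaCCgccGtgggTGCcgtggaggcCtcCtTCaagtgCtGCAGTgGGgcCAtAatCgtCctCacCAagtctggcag
Transcripts with M2 held 98.2%, 98.3% and 98.4% of the TPM in transcripts with 1 of these exons, which is 1441, 1419 and 1469 TPM. Transcripts with M1 held 1.79%, 1.72% and 1.61%, or 26.2, 24.9 and 24.1 TPM. These transcripts made up 74.7% of the gene's TPM, and a short retained-intron transcript, PKM-208, held 18.8% ± 2.53.

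Adhesion and cytoskeleton genes gave further choices. For LAMA3, transcripts with the start codon of the short LAMA3A form held 98.8%, 98.8% and 98.9% of the assigned TPM. In ITGA6, inclusion of a 130 nt exon gives the A tail of the protein, and transcripts with it held 83.8%, 84.5% and 84.2%. CTNND1 encodes p120 catenin, whose shorter isoform 3 is typical of epithelium and whose isoform 1 is typical of mesenchyme. Transcripts with the isoform 3 start held 82.0%, 84.1% and 83.1%, and those with the isoform 1 start held 6.99%, 7.12% and 8.42%. ENAH encodes an actin regulator with a 63 nt exon that epithelial cells include. Transcripts with it held 50.3%, 52.7% and 50.01% of the assigned TPM but 64.6% of assigned reads. Only 64.1% of the gene's TPM could be assigned. The 2 included transcripts had 33.9, 35.7 and 35.1 TPM. Most of this, 28.8, 30.4 and 30.03 TPM, lay in ENAH-202, a transcript with a retained intron. The share therefore does not give the level of a coding form with the exon. In FN1 the EDA exon was included in 65.9%, 63.5% and 65.8% and the EDB exon in 7.35%, 6.80% and 6.65%. For LMNA, the lamin C stop codon was used by 63.03%, 61.7% and 63.3% of assigned TPM and by 50.3% of assigned reads, so the balance with lamin A depended on the unit.

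**Figure D5:**
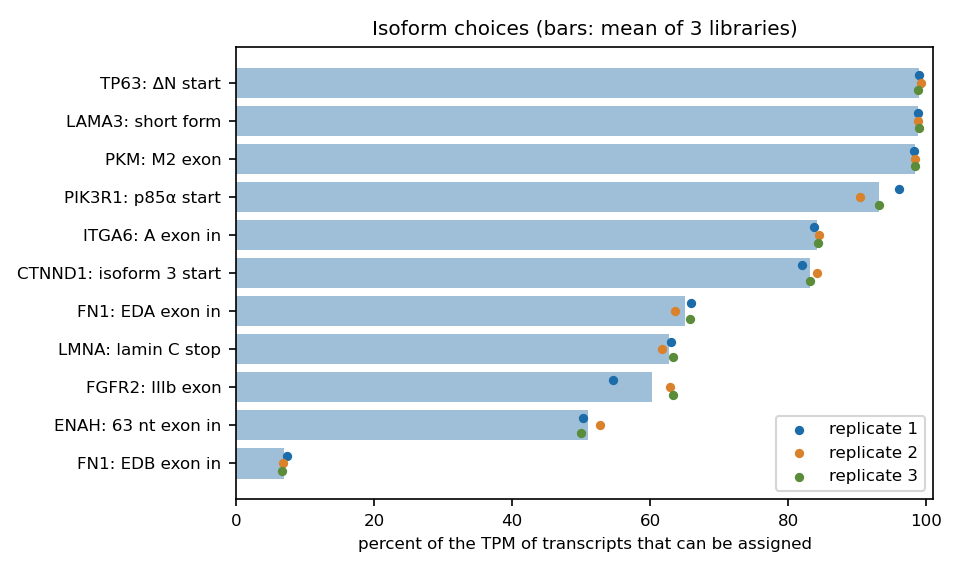
Share of assigned TPM in percent for 11 isoform choices; bars are means over the 3 libraries and points are single libraries. The deltaN start of TP63, the short form of LAMA3 and the M2 exon of PKM lie above 98%, and the EDB exon of FN1 lies under 8%.

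CD44, a receptor for hyaluronan with a block of variable exons, was divided. The gene had 429, 419 and 426 TPM. Among complete transcripts, the standard form with 0 variable exons held 32.0%, 33.0% and 32.8%, the form with 3 held 32.3%, 32.0% and 30.4% and the form with 8 held 32.7%, 32.2% and 34.0% of the assigned TPM. By reads the standard form held 48.1%. Only 52.7% of the gene's TPM was in complete transcripts, since many listed CD44 transcripts are fragments.

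For some genes the leading transcript was not a coding one. Among 2796 protein-coding genes with a mean of at least 50 TPM, 192 (6.87%) had a most abundant transcript of another class, 73 of them processed transcripts, 60 with retained introns and 55 marked for nonsense-mediated decay. The 10 highest were NPM1, RPL11, RPL14, RPL37, RPS28, B2M, OAZ1, SRSF3, PTMS and COX6C. In NPM1 the 268 nt transcript NPM1-210 held 47.5%, 50.9% and 52.9% of TPM from 4.95%, 5.95% and 6.48% of the gene's reads. In RPL14 the retained-intron transcript RPL14-208 held 93.7%, 94.0% and 94.1% of TPM and 84.5%, 85.01% and 85.3% of reads. The share thus depended strongly on length in NPM1 and little in RPL14.

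Long noncoding RNAs were few at high levels. Of 15939 listed, 1491 were detected and 18 exceeded 100 TPM in every library. By annotated class, the 10 highest were FP671120.4, AD000090.1, SNHG5, SNHG29, MIR205HG, GAS5, MALAT1, SNHG6, AC125611.3 and AC011603.2. FP671120.4 is annotated as lincRNA and AD000090.1 as antisense, but both rose with structural RNAs in replicate 3, as described below. AC011603.2 overlaps the abundant gene TUBA1B on the other strand, and the strand setting is not named. Without replicate 3, AD000090.1 averaged 366 TPM, against 785 TPM with it, and stood at place 5 in place of 2, below SNHG5, SNHG29 and MIR205HG. FP671120.4 stayed first, at 5260.1 TPM, against 9196 TPM with it. SNHG5, SNHG29, GAS5 and SNHG6 are hosts of small nucleolar RNAs, and SNHG5 had 787, 751 and 670.5 TPM. MIR205HG, the host of a microRNA typical of basal and squamous epithelium, had 375, 378 and 341 TPM. MALAT1 had 307, 308 and 282 TPM and NEAT1 had 154, 140.4 and 114 TPM. In NEAT1 the 3300 nt transcript NEAT1-207 held 63.1% ± 3.67 of TPM.

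Replicate 3 differed from the others in a set of RNAs, most of them structural. FP671120.4 (chr21:8210384-8211306) had 3774, 6746 and 17069 TPM, and RNA5-8SN2, a 5.8S ribosomal RNA gene close to it (chr21:8212572-8212724), had 2775, 2505 and 10016.5 TPM. RMRP had 21.4, 29.9 and 391 TPM, RPPH1 had 6.10, 5.57 and 92.0 TPM, RN7SK had 27.8, 45.1 and 230.0 TPM and AD000090.1 had 298, 434 and 1625 TPM. Replicate 3 was the highest for each. Without replicate 3, FP671120.4 fell to place 12 by mean TPM and RNA5-8SN2 to place 49, against places 4 and 14 with it, while MT2A, MT-ATP8 and S100A2 held places 1, 2 and 3 in both. The labels give total RNA and name no selection step.

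Elsewhere the libraries were close. Over 8594 genes with a mean of at least 10 TPM, the median ratio of the highest to the lowest library was 1.06, and 75.6% of the genes had a ratio under 1.1. A ratio of 1.5 or more was seen in 87 genes, of which 32 were highest in replicate 1, 19 in replicate 2 and 36 in replicate 3. The 10 genes with the largest ratios were short RNA loci of 1 to 6 effective positions, such as RNU6-882P, RNU6-762P, RNA5SP284 and RNU6-856P, and each rested on 27.0 reads or fewer in all. For such genes 1 read is worth several TPM. Among 8247 protein-coding genes at that level, 15 had a ratio of 1.5 or more. The largest, chosen here after its values were seen, was PIGA with 9.84, 11.6 and 20.9 TPM, followed by EHMT1 with 60.6, 32.4 and 29.4 TPM.

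Absent genes were a large group. No reads in any library were found for 25868 genes (44.3%), of which 2429 were protein-coding (12.3% of that class). Under 0.1 TPM in every library lay 35112 genes, 5428 of them protein-coding (27.6%). Of the members of all marker lists, counted once each, 192 of 328 were detected, a share near the 59.7% of all protein-coding genes.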

How the data were processed

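RNA from MCF10A cells was sequenced with paired reads of 150 nt. Per the submitters' processing notes, Trim Galore 0.6.1 with cutadapt and Salmon 1.2.1 were used, with the build GRCh38 for human samples. RNA selection, strand setting and annotation release are not named in the labels. The authors deposited, per library, TPM and estimated counts of read pairs for 207749 transcripts, with each transcript's effective length.

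From the deposited TPM and estimated counts, transcript values were summed by gene identifier, with no filter and no rescaling. Genes detected had at least 1 TPM in every library. Positions and exons came from GENCODE 29 on GRCh38, matched on identifiers without version for 58171 of 58434 genes. An isoform share divides the TPM of transcripts with a form by that of all transcripts that can be placed. There is 1 group, so no test was run, and the other 21 libraries were not used. Named genes were the 25 most abundant, members of the marker lists and gene families, the 10 highest long noncoding RNAs, the 10 genes with the largest spread, the 10 highest genes with a noncoding leading transcript and isoform genes. Members and lists were chosen with earlier results of these data known. Python 3.11.15, pandas 2.3.3, numpy 2.4.6, scipy 1.17.1 and matplotlib 3.10.9 were used. The code that calls detected genes and dominant isoforms was run on simulated data with levels and shares set away from the cut-offs. That run checks the code only and says nothing of genes near a cut-off or of how reads were divided. A few genes of the lists are not reported by name here, but remain in the counts.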

Additional observations from a re-analysis of the deposited data

How the results depend on the processing

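Levels rest on 1 line, on Salmon's division of reads among similar transcripts, and on effective lengths that are small for short RNAs. The share of protein_coding transcripts was 90.8% by reads, against 84.2% by TPM. The 20 most abundant genes held 8.15% by reads and 15.2% of TPM without mitochondrially encoded genes, against 16.8%. Asking for 80% in place of 50% left 2867 genes with a dominant isoform, against 7262. The median ratio of highest to lowest library was 1.08 at a mean of 1 TPM or more, and 1.03 to 1.04 with 1 library left out, where 2 libraries are compared in place of 3. Detected genes numbered 10300 at a minimum of 5 TPM and 15311 at 0.5 TPM, against 13764, and 13876 to 14016 with 1 library left out. At a minimum of 5 TPM, 4 EGF family ligands and 6 secreted genes counted as detected, against 8 and 12. Melanocyte markers numbered 3 at 0.5 TPM and 2 without replicate 1, against 1, and 1 pluripotency marker passed at 0.5 TPM and after rescaling over protein-coding genes, against 0. Depth limits what can be said of genes under the floor of 3 reads. No paired analysis was possible because the results come from 1 group and no test.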

Other observations

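Further gene families, chosen after their values were seen, differed in how many members were detected. Over all protein-coding genes 59.7% were detected, 27.6% were near absent and 12.3% had no reads, and the family counts are to be read beside these shares. Metallothioneins took 3.36% ± 0.109 of TPM (SD, n = 3), and 4 of 11 were detected. MT1E followed MT2A at 1004, 998 and 983 TPM, MT1X had 540.4, 522 and 510.4 TPM and MT1F had 13.7, 14.2 and 16.9 TPM, while 6 members were near absent. Among HOX genes, which mark position along the body, the HOXD cluster stood apart. Of the HOXA genes 9 of 11 were detected, of HOXB 5 of 10, of HOXC 6 of 9 and of HOXD 0 of 9, and all 9 HOXD genes were near absent. With so few genes per cluster, the HOXA, HOXB and HOXC counts are not read as a difference between these clusters. HOXC6 had 17.3, 17.7 and 18.3 TPM, HOXC9 had 17.6, 14.9 and 15.4 TPM, HOXA5 had 15.8, 14.9 and 15.1 TPM and HOXB2 had 7.39, 5.68 and 5.79 TPM. SOX15 was the highest of 19 SOX genes, with 87.6, 83.8 and 84.5 TPM, and SOX13 was next at 13.5, 13.1 and 13.6 TPM.

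Protease and matrix genes showed single leaders. MMP14, a membrane-bound matrix protease, had 138, 128 and 126 TPM, and MMP9 came next of 22 MMP genes at 18.9, 18.8 and 18.7 TPM. SERPINB5, the epithelial serpin known as maspin, had 409, 399.8 and 394 TPM, and 6 of 13 SERPINB genes were detected. Of 44 collagen genes 19 were detected. Beside COL17A1, the basement membrane collagens COL4A2 (91.8, 87.8 and 89.98 TPM) and COL7A1 (82.4, 78.5 and 71.7 TPM) led. CLDN7 was the highest of 24 claudin genes, at 105.2, 102 and 99.3 TPM, and 6 were detected.

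Several other families were close to unread. Of 384 olfactory receptor genes 2 were detected, OR4F17 at 3.50, 3.44 and 3.30 TPM and OR2A7 at 2.27, 2.44 and 2.56 TPM, and 293 had no reads. No member was detected among 94 keratin-associated protein genes, 35 beta-defensin genes, 27 taste receptor genes and 17 type I interferon genes. KRT81, a hair keratin above 2000 TPM, thus stood beside keratin-associated protein genes of which 88 had no reads in any library.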
